A study of Mus musculus with 15 samples.

Results

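Histone genes are the templates for the proteins that package DNA, and 67 of them were examined here among 21896 protein-coding mouse genes. They were chosen by symbol alone, as every protein-coding gene of the RefSeq annotation of GRCm38 (the assembly of mm10) whose symbol begins with H1f, H2ac, H2bc, H3c or H4c and ends in a number, the current names of the H1, H2A, H2B, H3 and H4 genes. H4bc24, a histone-named gene beside H2ac24 that this rule does not take, had no peak of any target. The set holds 10 H1 genes, 17 H2A, 16 H2B, 12 H3 and 12 H4. On chromosome 13 lie 53 of them, between positions 21715711 and 23934913, in groups of 17, 5 and 29 genes and an outlying pair, H2bc1 and H2ac1. A further 10 lie on chromosome 3 between positions 96219885 and 96270192. The other 4, H1f0, H1f7, H1f8 and H1f10, stand alone.

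H2A, H2B, H3 and H4 form the core of the nucleosome, and H1 binds the DNA that links nucleosomes. Most clustered histone genes are short, lack introns, are transcribed mainly in S phase and give mRNAs that end in a stem-loop in place of a poly(A) tail. Many H2A and H2B genes lie head to head and share a promoter, and the clusters gather in a nuclear structure called the histone locus body, which is organised by NPAT.

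The cells were HPC-7, a mouse line of early blood progenitors that was derived from embryonic stem cells. They were profiled by CUT&Tag, in which an antibody brings a transposase to its target so that the DNA beside it is cut and tagged, with about 150000 cells per reaction. Control cells, titled wild type and named after a luciferase shRNA in their descriptions, were profiled for H3K4me3 (trimethylated lysine of histone H3, a mark of active promoters), for YY1 (Yin Yang 1, a zinc finger transcription factor) and for SMC3 (a core subunit of cohesin, the ring complex that holds DNA segments together). A further arm, called shYY1 here, carried an shRNA to YY1 and was profiled for SMC3 alone. Every group had 3 libraries, described in the protocol as biological replicates, and all groups were of 1 cell line; the sources used here do not say whether the shRNA cells were pools or clones. YY1 was not profiled in the shYY1 libraries examined, which leaves the knockdown unmeasured, and the 3 IgG libraries were not analysed here. Of 12 early haematopoietic marker genes (Kit, Tal1, Gata2 and others), 12 carried reproducible H3K4me3, against 0 of 6 pluripotency, 0 of 3 hepatocyte, 1 of 4 fibroblast (Pdgfra) and 2 of 5 lymphoid genes (Cd79a and Cd4).

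The deposited data are positions of called peaks, with no height or read count, so the depth behind a call is unknown and a missing peak does not show that the protein was absent. H3K4me3 lists held 16763 to 17895 peaks, YY1 lists 3750 to 10699, control SMC3 lists 2061 to 4595 and shYY1 SMC3 lists 2631 to 3213. The third YY1 library and the third control SMC3 library had the shortest lists of their groups. A gene was counted with a target when a peak lay within 1000 bp of its span, and the target was called reproducible there when at least 2 of 3 libraries had one. Neighbouring histone genes often share 1 peak, and several encode near-identical sequence. The sources used here do not say how reads that match several copies were placed, and the part of this in the calls was not tested.

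Promoter sequences of the genes on which the results turn are shown first, because the histone types differ in the sequence just before the start. RefSeq gives a promoter, from 250 bases before to 50 after the start, for 62 of the 67 genes (GRCm38.p6). Capitals mark 6 short motifs found on either strand, each spelled out where its count is given below: the CCAAT box, the TATA box, the octamer, the YY1 core, the H1 box and an H4 motif. The first 3 sequences are whole gaps between an H2A and an H2B gene: H2ac6 and H2bc4 (chr13:23683960-23684198, minus strand, ending at the H2ac6 start), H2ac15 and H2bc15 (chr13:21753913-21754075, plus strand), and H2ac8 and H2bc8 (chr13:23571221-23571399, plus strand).
H2ac6/H2bc4: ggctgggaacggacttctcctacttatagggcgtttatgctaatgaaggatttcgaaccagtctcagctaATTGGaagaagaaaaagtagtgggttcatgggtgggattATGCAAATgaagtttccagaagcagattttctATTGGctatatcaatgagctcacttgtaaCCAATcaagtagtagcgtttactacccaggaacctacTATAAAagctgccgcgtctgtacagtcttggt
H2ac15/H2bc15: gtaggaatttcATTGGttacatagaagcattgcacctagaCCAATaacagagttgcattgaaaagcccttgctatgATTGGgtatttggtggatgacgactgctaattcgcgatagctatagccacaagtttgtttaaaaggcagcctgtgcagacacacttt
H2ac8/H2bc8: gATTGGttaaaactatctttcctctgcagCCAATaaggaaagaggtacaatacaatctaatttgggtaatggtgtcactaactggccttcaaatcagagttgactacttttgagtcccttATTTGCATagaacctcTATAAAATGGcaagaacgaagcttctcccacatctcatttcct

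All 3 gaps hold CCAAT, and 2 of them, at H2ac6/H2bc4 and H2ac8/H2bc8, also hold the octamer (ATTTGCAT) that POU2F1 binds. In the gap between H2ac8 and H2bc8, the TATA box and a reverse-strand match to the YY1 core overlap, so their capitals run together. Over the searched promoters, CCAAT, which the NF-Y complex binds, was present at 17 of 17 H2A, 14 of 14 H2B and 10 of 10 H3 genes, against 39.0% of all 17491 promoters of the same length. The octamer was present at 6 H2A and 6 H2B genes and at 0 of the H1, H3 and H4 genes, against 1.71% of all promoters. The TATA box, searched as TATAAA, was present at 34 of the 62 histone promoters (54.8%), against 13.3% of all.

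The H4 promoters were of another kind. The 150 bases before the start are shown for 2 H4 genes with YY1 and SMC3 in every library, H4c9 (chr13:22041363-22041512, minus strand) and H4c12 (chr13:21750554-21750703, minus strand), and for H4c6 (chr13:23551669-23551818, minus strand), which had YY1 in every library and SMC3 in none.
H4c9: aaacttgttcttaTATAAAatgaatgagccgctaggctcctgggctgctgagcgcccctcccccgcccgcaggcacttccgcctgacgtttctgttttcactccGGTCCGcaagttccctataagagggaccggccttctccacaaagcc
H4c12: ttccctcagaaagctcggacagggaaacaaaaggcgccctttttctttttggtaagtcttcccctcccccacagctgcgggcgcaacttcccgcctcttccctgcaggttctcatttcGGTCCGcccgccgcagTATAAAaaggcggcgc
H4c6: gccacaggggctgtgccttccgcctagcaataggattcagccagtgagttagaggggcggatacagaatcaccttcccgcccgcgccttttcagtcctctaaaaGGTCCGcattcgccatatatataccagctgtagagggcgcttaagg

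CCAAT was found in 3 of 11 H4 promoters (27.3%), below its share of all promoters. The letters GGTCCG were found in 10 of 11 (90.9%), against 10.6% of all promoters. They were noticed in the printed sequences before they were counted, so the count is a description only. CGTCCG, the letters searched for HINFP, was found in 1 of the 11 and in 8.53% of all promoters. It differs from GGTCCG in the first letter only. The search of this exact spelling therefore does not show whether H4 promoters hold or lack HINFP sites. The GGTCCG of H4c9 and that of H4c6 both begin 46 bases before the start. H4c6 and H4c9 therefore hold the same letters at the same place although only H4c9 had SMC3 calls.

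An H1 and 2 H3 promoters complete the set, each as the 150 bases before the start. H1f3 (chr13:23554882-23555031, plus strand) and H3c6 (chr13:23562386-23562535, minus strand) had YY1 and SMC3 in every library, and H3c4 (chr13:23575613-23575762, plus strand) had H3K4me3 and neither of the others.
H1f3: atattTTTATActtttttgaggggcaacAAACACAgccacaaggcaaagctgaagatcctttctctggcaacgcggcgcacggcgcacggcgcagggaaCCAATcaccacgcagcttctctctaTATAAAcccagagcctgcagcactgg
H3c6: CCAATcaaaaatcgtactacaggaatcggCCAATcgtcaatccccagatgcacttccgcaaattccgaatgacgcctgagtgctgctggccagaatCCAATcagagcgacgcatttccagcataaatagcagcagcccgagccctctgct
H3c4: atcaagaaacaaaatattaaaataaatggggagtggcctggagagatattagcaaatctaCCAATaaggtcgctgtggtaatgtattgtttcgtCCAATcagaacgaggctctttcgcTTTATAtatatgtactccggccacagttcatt

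AAACACA, the box typical of H1 genes, was found in 5 of 10 H1 promoters, against 6.13% of all promoters, and the H1f3 sequence holds it. CCAAT occurs in H3c6 and in H3c4 alike. The YY1 core CCATNTT was found in 11 of the 62 histone promoters (17.7%), close to its 15.4% of all promoters. By type it was found in 1 H1, 2 H2A, 4 H2B, 3 H3 and 1 H4 promoters. The search ended 50 bases after the start. At H4 and H1 genes the median YY1 summit lay beyond that, 96.7 ± 19.9 and 112 ± 39.1 bp (SD, n = 3) after the start. At H2A and H2B genes it lay within the searched stretch. At H3 genes it lay within that stretch in the first and the second YY1 library (-20 and 1 bp). In the third, at -326 bp, it lay upstream of the stretch. A core farther inside the genes or farther upstream was not looked for.

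Histone genes carried all 4 signals more often than protein-coding genes at large. Reproducible H3K4me3 lay at 60 of the 67 genes (89.6%), against 52.1% of all protein-coding genes. Reproducible YY1 lay at 54 (80.6%), against 33.3% of all. Control SMC3 lay at 33 (49.3%), against 16.5%, and SMC3 in shYY1 cells lay at 24 (35.8%), against 12.5%. In all 3 libraries, H3K4me3 lay at 58 (51.3% of all genes), YY1 at 46 (17.1%), SMC3 at 17 in control (8.49%) and at 14 in shYY1 cells (8.35%). Library by library, 60, 60 and 58 histone genes had an H3K4me3 peak, 54, 57 and 46 a YY1 peak, 37, 39 and 19 a control SMC3 peak and 25, 25 and 22 an SMC3 peak in shYY1 cells. In each of the 12 libraries the share of histone genes with a peak was above the share of all genes, 78.1% ± 8.47 (SD, n = 3) against 30.4% ± 11.5 for YY1 and 47.3% ± 16.4 against 16.2% ± 6.02 for control SMC3. The third control SMC3 library was low for histone genes and for all genes alike.

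**Figure D1:**
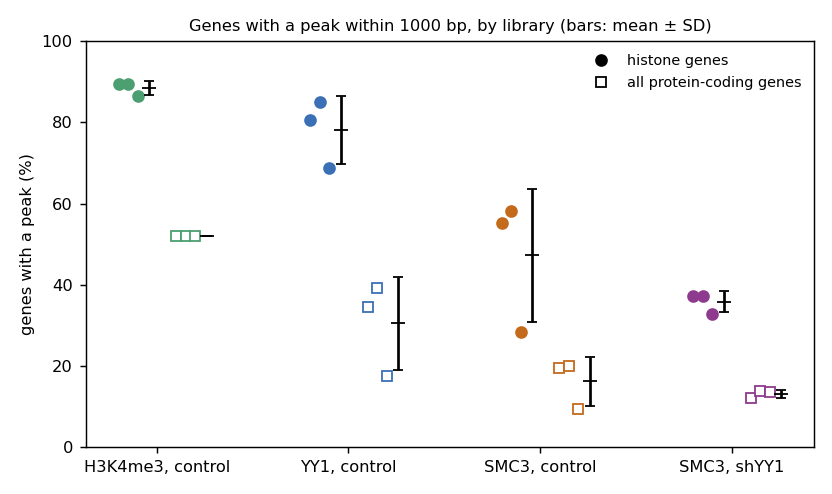
Percentage of genes with a peak within 1000 bp (y axis) in each library of the 4 groups (x axis), for the 67 histone genes (filled circles) and all protein-coding genes (open squares), with bars for the mean and SD of 3 libraries. Histone genes stood at 88.6% ± 1.73 for H3K4me3 and all genes at 52.1% ± 0.0577, and the third YY1 and control SMC3 libraries were the lowest of their groups.

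Since histone genes also carry H3K4me3 more often, the shares were taken again among genes with that mark. YY1 lay at 54 of the 60 histone genes with H3K4me3 (90.0%), against 63.8% of all genes with it. Control SMC3 lay at 33 of the 60 (55.0%), against 31.6%, and shYY1 SMC3 at 24 (40.0%), against 23.9%. Among genes with YY1, the gap for SMC3 was smaller, 33 of 54 (61.1%) against 48.6% in control cells and 24 of 54 (44.4%) against 37.1% in shYY1 cells. Every histone gene with reproducible SMC3 in either arm also had reproducible YY1 and H3K4me3. Nearly all genes with SMC3 did so. Of 3623 genes with reproducible control SMC3, 3546 had YY1 and 3597 H3K4me3. Of 2746 with shYY1 SMC3, 2710 had YY1 and 2723 H3K4me3.

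**Figure D2:**
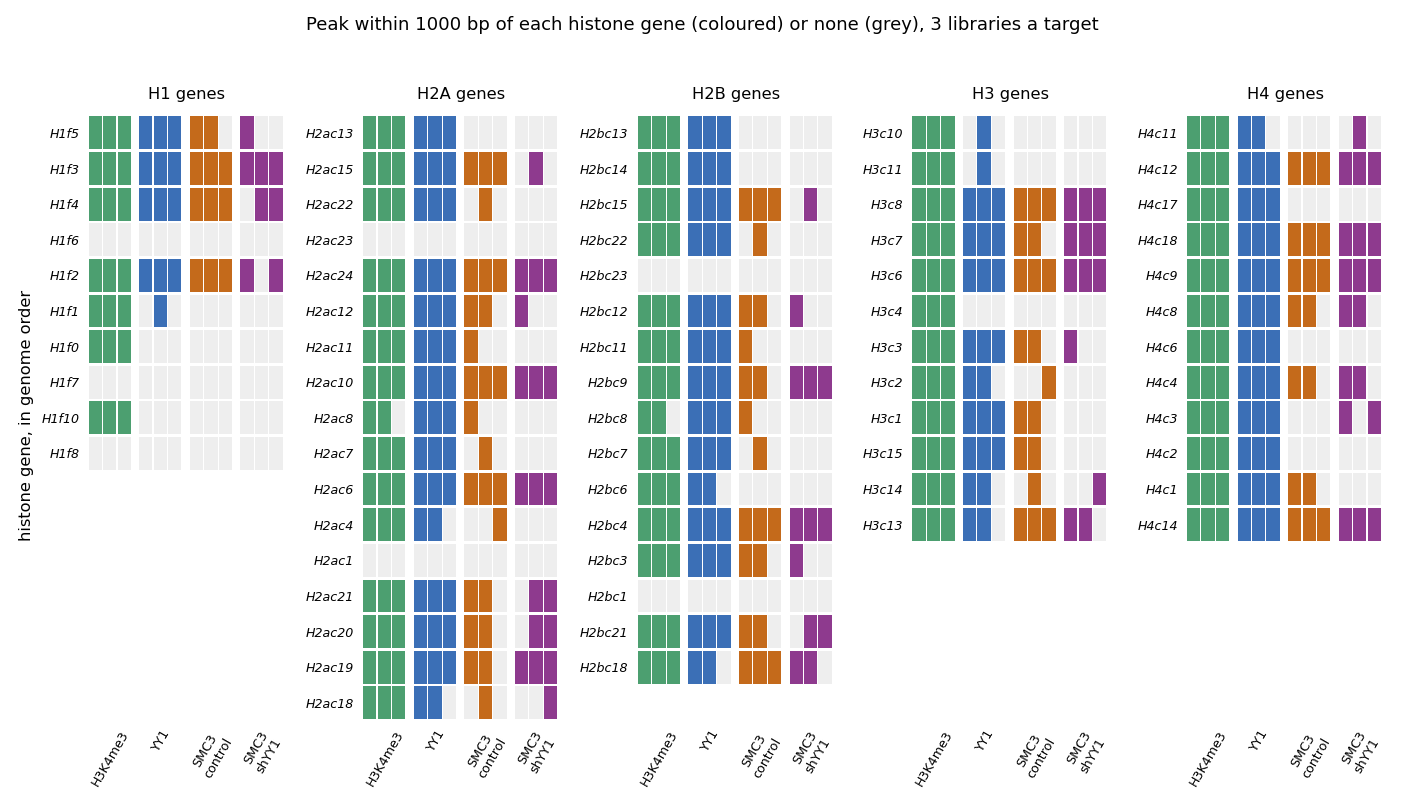
Presence (coloured) or absence (grey) of a peak within 1000 bp of each of the 67 histone genes (rows, in genome order within each histone type) in 3 libraries of each of 4 groups (columns). H4 genes had YY1 and H3K4me3 at 12 of 12, while 7 genes of the other types had no peak of any target.

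The calls fell into a few patterns. All 4 signals were reproducible at 23 genes, against 11.5% of all protein-coding genes, and H3K4me3 with YY1 and no reproducible SMC3 at 20. A further 10 genes had H3K4me3, YY1 and control SMC3 without reproducible shYY1 SMC3, and H4c3 had the reverse. H3K4me3 alone was reproducible at 6 genes: H3c4, H3c10, H3c11, H1f1, H1f0 and H1f10. No peak of any target lay at H2bc23, H2ac23, H1f6, H2bc1, H2ac1, H1f7 and H1f8. H1f6, H2bc1 and H2ac1 are known as testis histone genes, H1f7 as a spermatid gene and H1f8 as an oocyte gene.

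Among genes outside the clusters, H1f0 and H1f10, the linker histones made throughout the cell cycle, had H3K4me3 in every library and no YY1 or SMC3 peak in any. The H3K4me3 peaks of H1f0 (chr15:79028212-79030504) were 1068, 505 and 667 bp long and those of H1f10 (chr6:87980421-87981482) 667, 660 and 632 bp. H3c4 (chr13:23575763-23576266) was the only gene within a cluster with reproducible H3K4me3 and no YY1 peak in any library, with H3K4me3 peaks of 470, 486 and 487 bp. These 3 genes are 5.0% of the histone genes with H3K4me3, against 22.5% of all genes with it. H1f1, H3c10 and H3c11 each had 1 YY1 peak, all in the second and longest YY1 list.

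By cluster, YY1 was reproducible at 13 of 17, 5 of 5 and 26 of 29 genes of the chromosome 13 groups in genome order and at 10 of 10 on chromosome 3. Control SMC3 was reproducible at 6 of 17, 3 of 5, 16 of 29 and 8 of 10 in the same order, and shYY1 SMC3 at 3, 1, 13 and 7. YY1 and SMC3 peaks within the chromosome 13 locus lay mostly at histone genes. Of the YY1 peaks, 37, 39 and 32 lay within 1000 bp of a histone gene and 9, 12 and 6 elsewhere in the 2219203 bp from the first to the last gene. Of the control SMC3 peaks, 20, 20 and 11 lay at histone genes and 2, 3 and 1 elsewhere, and H3K4me3 was less one-sided, with 42, 40 and 38 at histone genes and 31, 29 and 30 elsewhere. Between the first and last gene of the 2 clusters lie 51 protein-coding genes outside the set, H4bc24 among them, all on chromosome 13. Of these, 6 had reproducible H3K4me3, 3 YY1, 1 control SMC3 and 1 shYY1 SMC3. Most of the 51 are Vmn1r genes, and no Vmn1r gene had a peak of any target.

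Because neighbouring genes share peaks, peaks were also counted as distinct regions. Reproducible YY1 formed 43 regions at histone genes, of which 22 lay at 2 or more of them and none at more than 3. All 43 overlapped an H3K4me3 region, against 94.8% of all 7814 YY1 regions. Control SMC3 overlapped 23 of the 43 (53.5%, exact Clopper-Pearson 95% interval for counting error only 37.7 to 68.8), against 43.7% of all YY1 regions. The interval treats neighbouring regions as independent and is no test against all regions. Leaving out the first or the second control SMC3 library brought the share to 27.9% at histone genes and 23.7% over all YY1 regions. Leaving out the first or the second YY1 library gave 61.8% or 58.3% at histone genes, below the 65.2% or 66.6% of all regions, so the order of the shares depends on which YY1 library is left out.

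Histone H4 genes all carried both H3K4me3 and YY1, with each reproducible at 12 of 12. Control SMC3 was reproducible at 7 H4 genes, and SMC3 in shYY1 cells at 7. YY1 peaks were called at 12, 12 and 11 H4 genes in the 3 libraries, and SMC3 peaks at 7, 7 and 4 in control and 7, 7 and 5 in shYY1 cells. SMC3 was found in every library of both arms at H4c9, H4c12, H4c14 and H4c18. It was found in none of the 6 at H4c2, H4c6 and H4c17, each of which had YY1 in every library.

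The longest YY1 peak at H4c9 (chr13:22040960-22041362) was 521, 532 and 483 bp, its control SMC3 peaks 316, 341 and 332 bp and its shYY1 SMC3 peaks 321, 159 and 341 bp. At H4c12 (chr13:21750145-21750553) YY1 peaks were 390, 453 and 328 bp, control SMC3 peaks 272, 212 and 153 bp and shYY1 SMC3 peaks 212, 185 and 272 bp. At H4c14 (chr3:96262934-96263317) YY1 peaks were 495, 542 and 393 bp, control SMC3 peaks 308, 279 and 225 bp and shYY1 SMC3 peaks 256, 241 and 270 bp. The SMC3 peak lengths of the 2 arms overlapped at each of these genes. At H4c18 (chr13:21831792-21832197) YY1 peaks were 325, 354 and 302 bp, control SMC3 peaks 302, 287 and 202 bp and shYY1 SMC3 peaks 257, 224 and 243 bp, again with overlapping arms. The peak of H4c18 also counted for H2ac24, whose own start lay 1316, 1314 and 1313 bp from the summit in the YY1 libraries.

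H4c6 had YY1 peaks of 387, 398 and 309 bp, a length like that at H4c12, and no SMC3 peak. H4c1 (chr13:23760795-23761249) had SMC3 peaks of 142 and 224 bp in the first 2 control libraries, none in the third and none in shYY1 cells, and shares its peaks with H3c1. Its YY1 peaks were 1044, 1612 and 231 bp, at the 99.5, 99.9 and 21.9 percentiles of their lists. H4c3 (chr13:23698084-23698458) had no SMC3 peak in control cells and peaks of 299 and 179 bp in the first and the third shYY1 libraries, with YY1 peaks of 137, 518 and 453 bp.

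Histone H2A and H2B genes carried YY1 nearly as often as H4. H3K4me3 and YY1 were both reproducible at 15 of 17 H2A genes and 14 of 16 H2B genes. Control SMC3 was reproducible at 8 H2A and 7 H2B genes and shYY1 SMC3 at 6 and 4. SMC3 was called at 10, 11 and 5 H2A genes in control and 5, 7 and 7 in shYY1 libraries, and at 9, 9 and 3 against 5, 5 and 3 H2B genes. Each arm's range overlapped the other's.

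At H2ac6 (chr13:23683473-23683959) and H2bc4 (chr13:23684199-23692480), whose gap is the first sequence above, 1 peak served both genes. YY1 peaks there were 844, 898 and 626 bp, at the 97.9, 96.9 and 91.8 percentiles of their lists. Control SMC3 peaks were 512, 539 and 412 bp and shYY1 SMC3 peaks 439, 332 and 250 bp. The longest shYY1 peak exceeded the shortest control peak, so the arms overlapped. H2ac10 (chr13:23533875-23534378) had YY1 and SMC3 in every library, with YY1 peaks of 470, 410 and 410 bp that were also those of H3c8.

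Head-to-head H2A and H2B genes with both strands given formed 9 pairs with gaps of 163 to 280 bp. Both genes had YY1 in every library in 7 of the 9 pairs, and reproducible H3K4me3 also in 7. Control SMC3 was reproducible at both genes of 2 pairs and shYY1 SMC3 at both genes of 0. The pairs with control SMC3 were H2ac15 with H2bc15 and H2ac12 with H2bc12. H2ac15 and H2bc15 shared YY1 peaks of 816, 733 and 585 bp, control SMC3 peaks of 138, 584 and 183 bp and 1 shYY1 SMC3 peak of 224 bp. H2ac12 and H2bc12 shared YY1 peaks of 546, 805 and 369 bp, control SMC3 peaks of 143 and 264 bp and 1 shYY1 SMC3 peak of 146 bp. H2ac6 with H2bc4 and H2ac20 with H2bc21 are not among the 9, since RefSeq's promoter table gives the strand of 1 gene of each only. Both of these left-out pairs had reproducible SMC3 at both genes in control and in shYY1 cells. The count of 0 thus depends on which pairs were taken.

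H2ac8 and H2bc8, chosen after their values were seen, joined very long YY1 peaks to very short H3K4me3 peaks. Their YY1 peaks were 950, 999 and 870 bp, at the 99.0, 98.3 and 98.4 percentiles of length. Their H3K4me3 peaks were 205 and 177 bp in the first 2 libraries, at or below the 0.768 percentile, and none was called in the third. SMC3 was called once there, as a peak of 172 bp in the first control library.

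Histone H3 genes had H3K4me3 at 12 of 12 and YY1 at 9. SMC3 was reproducible at 7 of them in control and 4 in shYY1 cells. H3c6 and H3c8 had YY1 and SMC3 in every library. At H3c6 (chr13:23561475-23562385) YY1 peaks were 666, 768 and 517 bp, control SMC3 peaks 502, 294 and 348 bp and shYY1 SMC3 peaks 255, 168 and 279 bp. All 3 shYY1 peaks were shorter than all 3 control peaks at H3c6, a difference chosen after the values were seen and not tested. At H3c8 (chr13:23535418-23535909) control SMC3 peaks were 268, 342 and 228 bp and shYY1 SMC3 peaks 206, 218 and 244 bp, with overlapping arms. H3c1 and H3c15 had SMC3 in the first 2 control libraries and in no shYY1 library. At H3c15 (chr3:96238479-96239127) the control SMC3 peaks were 188 and 254 bp, and the YY1 peaks were 281, 312 and 204 bp.

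Histone H1 genes had H3K4me3 at 7 of 10, YY1 at 4 and SMC3 at 4 in control and 3 in shYY1 cells. The genes with none of YY1 and SMC3 included the single genes and the testis gene H1f6. Among the 5 replication-dependent linker genes of chromosome 13, YY1 was reproducible at H1f2, H1f3, H1f4 and H1f5, while H1f1 had it in 1 library. The same 4 genes had reproducible control SMC3, and 3 of them had it in shYY1 cells. At H1f3 (chr13:23555032-23555807) YY1 peaks were 684, 683 and 716 bp, control SMC3 peaks 376, 459 and 402 bp and shYY1 SMC3 peaks 528, 371 and 431 bp. SMC3 peaks at H1f3 were of like length in both arms and lay at the 81.2 percentile of their lists or above in all 6 libraries. H1f2 had SMC3 peaks of 482, 297 and 303 bp in control cells and of 326 and 346 bp in the first and the third shYY1 libraries.

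YY1 peaks at histone genes were long for YY1, and H3K4me3 peaks there were short for H3K4me3. Peak length was ranked within each list, since the lists differ in length. The median YY1 peak at a histone gene stood at the 67.7 ± 9.54 percentile (SD, n = 3), against 52.5 ± 1.0 for YY1 peaks near any gene, with a median of 429 ± 57.5 bp. The median H3K4me3 peak stood at the 34.7 ± 1.63 percentile, against 55.6 ± 0.1, with a median of 557 ± 88.2 bp. Control SMC3 peaks stood at 55.3 ± 6.24, against 51.2 ± 0.874 near any gene, and shYY1 SMC3 peaks at 46.7 ± 6.3, against 51.1 ± 0.416, each within its SD of the other genes. Of 21 single-gene and 22 shared YY1 regions none was shorter than 218 bp, and the longest reached 1612 bp.

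The types differed in this. YY1 peaks at H2B genes stood highest, at the 82.3 ± 8.23 percentile, with H1 at 75.7 ± 12.3, H2A at 67.0 ± 13.3, H4 at 57.4 ± 10.1 and H3 at 52.4 ± 4.06. Neighbours in this order lay within their SDs, while H2B did not overlap H4 or H3, and H1 did not overlap H3. H3K4me3 peaks at H4 genes stood lowest, at 25.9 ± 0.153, with H3 at 30.8 ± 2.55, H2A at 31.2 ± 2.21, H2B at 47.7 ± 0.902 and H1 at 52.7 ± 16.7. H2A and H2B share many peaks, so their values are not independent.

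**Figure D3:**
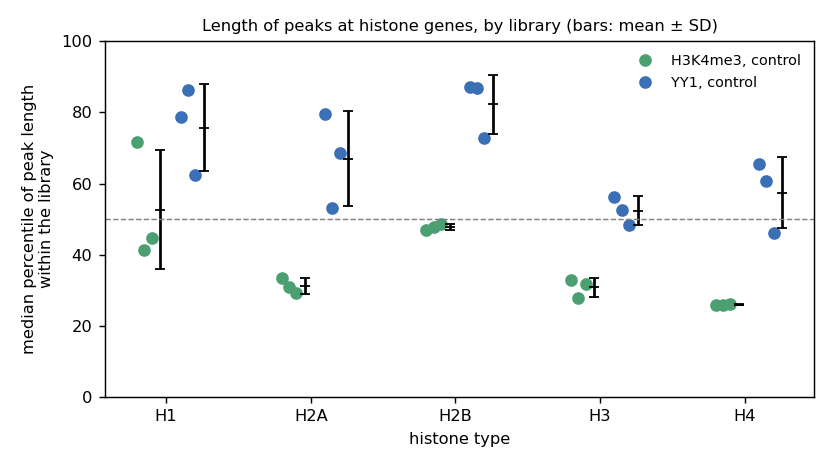
Median percentile of peak length within its own list (y axis) for peaks at each histone type (x axis), 1 point per library, for H3K4me3 and YY1 in control cells, with bars for the mean and SD of 3 libraries and a dashed line at the middle of each list. H3K4me3 peaks at H4 genes lay at 25.9 ± 0.153 in every library, and YY1 peaks at H2B genes at 82.3 ± 8.23.

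Peaks were then placed relative to the annotated start. Positive distances lie downstream of the start, inside the gene or past its end. At other genes with a YY1 summit within 1000 bp, the median summit lay upstream, at -49.0 ± 14.5 bp, and 37.7% ± 2.79 of summits lay downstream of the start. At histone genes it lay downstream, at 25.8 ± 10.2 bp, and 62.4% ± 3.3 of summits were downstream. Control SMC3 showed the same difference, -85.3 ± 14.4 bp at other genes against 48.3 ± 9.93 bp at histone genes, and so did shYY1 SMC3, -86.0 ± 2.0 bp against 45.3 ± 15.4 bp. H3K4me3 summits lay downstream at both, 27.3 ± 11.4 bp at other genes and 40.5 ± 13.5 bp at histone genes. Histone and other genes did not overlap in their 3-library means ± SD for YY1 or for SMC3 in either arm.

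By type, the median YY1 summit lay 96.7 ± 19.9 bp inside H4 genes, 112 ± 39.1 bp inside H1 genes and 14.7 ± 10.1 bp inside H2A genes. It lay at -3.5 ± 17.5 bp for H2B and -115 ± 183 bp for H3, whose libraries scattered most. The SMC3 summit lay 99.8 ± 10.6 bp inside H4 genes in control cells and 90.0 ± 45.0 bp inside them in shYY1 cells. YY1 summits were downstream of the start at 10 of 11, 9 of 11 and 10 of 10 H4 genes with a strand and a summit.

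**Figure D4:**
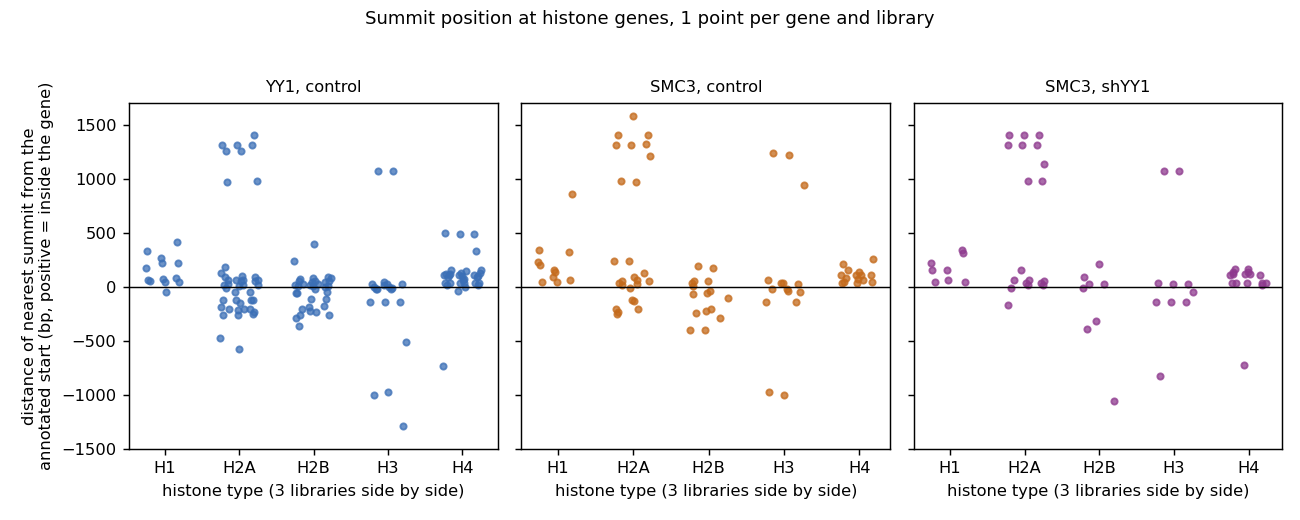
Distance of the nearest summit from the annotated start in base pairs (y axis) by histone type (x axis), 1 point per gene and library with the 3 libraries side by side, for YY1 in control cells and SMC3 in both arms. Positive values lie downstream of the start, which the axis label calls inside the gene. H4 points gathered just inside the gene in all 3 panels, with medians of 96.7, 99.8 and 90.0 bp. The H2A points farthest downstream include H2ac24 and H2ac10, whose peaks also served H4c18 and H3c8. Those points lie past the gene ends.

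At several genes the summits fell on nearly the same base in library after library. At H4c12 the YY1 summits lay 111, 111 and 111 bp inside the gene, the control SMC3 summits 111, 111 and 112 bp and the shYY1 SMC3 summits 110, 115 and 111 bp. The 3 H3K4me3 summits of H4c12 lay at 111, 111 and 111 bp too. At H3c8 the YY1 summits lay at -141, -140 and -140 bp, the H3K4me3 summits at -140, -140 and -139 bp and 5 of 6 SMC3 summits between -140 and -138 bp. At H4c18 the YY1 summits lay at 38, 36 and 35 bp and the H3K4me3 summits at 41, 36 and 41 bp. H3c6 had YY1 summits at 29, 28 and 28 bp.

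The 3 YY1 libraries agreed within 10 bp at 12 of 38 histone genes with a summit within 1000 bp in each (31.6%), against 480 of 2606 other genes (18.4%). H4 genes accounted for 5 of the 12, out of 10 with such summits. YY1 and H3K4me3 shared the position more often at histone genes as well. A YY1 summit at a histone gene lay within 10 bp of an H3K4me3 summit of some library in 66.7%, 62.5% and 58.3% of peaks, against 37.7%, 36.6% and 33.7% of YY1 peaks elsewhere. For control SMC3 the shares were 48.9% ± 6.24 at histone genes and 33.8% ± 0.777 elsewhere, and for shYY1 SMC3 64.0% ± 9.91 and 32.8% ± 0.306. SMC3 summits within 10 bp of a YY1 summit made up 64.0%, 44.4% and 69.2% of control SMC3 peaks at histone genes, against 50.6%, 48.5% and 50.6% elsewhere, so the second library went the other way. In shYY1 cells the shares were 67.6% ± 6.42 at histone genes and 49.1% ± 0.379 elsewhere. IgG was not analysed here, and the part of cutting sites or read placement common to all antibodies was not tested.

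The study asked how YY1 bears on SMC3, and the last comparison sets shYY1 against control cells. SMC3 was called at 37, 39 and 19 histone genes in control cells and at 25, 25 and 22 in shYY1 cells. The mean was 31.7 ± 11.0 (SD, n = 3) in control and 24.0 ± 1.73 in shYY1 cells, a difference of -7.67 that is smaller than the control SD. The third control library had the lowest of the 6 counts, below every shYY1 library. Without it the difference was -14.0, and without the first or the second control library -5.0 or -4.0. When each library was reduced to its 2061 longest peaks, the counts were 17, 30 and 19 in control and 22, 19 and 16 in shYY1 cells, a difference of -3.0.

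**Figure D5:**
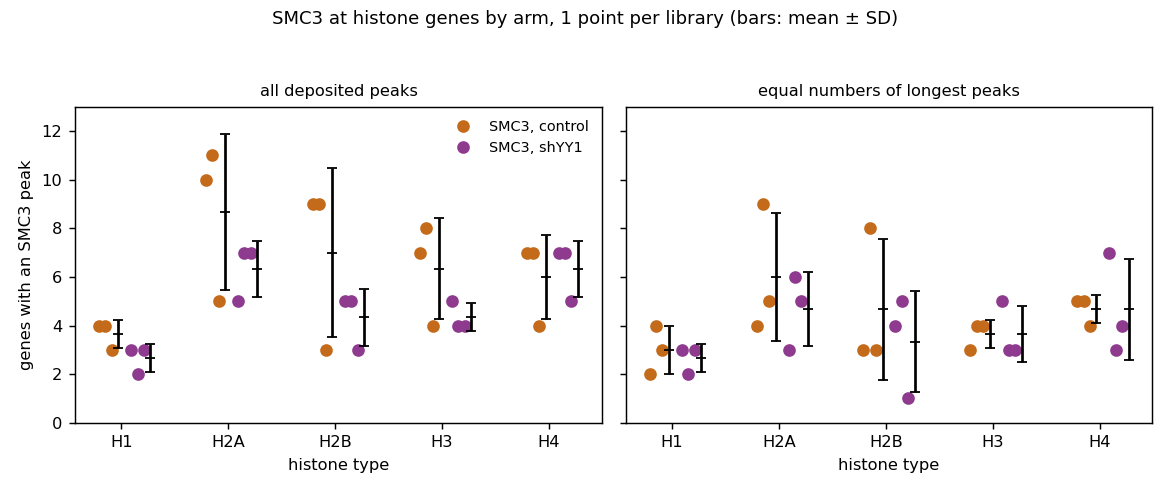
Number of histone genes of each type with an SMC3 peak (y axis) in each library of the control and shYY1 arms, with bars for the mean and SD of 3 libraries, for all deposited peaks (left) and the 2061 longest peaks of each list (right). With all peaks the H4 counts were 7, 7 and 4 in control and 7, 7 and 5 in shYY1 cells, and every type's arms overlapped or touched.

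Over the chromosome 13 locus, SMC3 peaks covered 5967, 6995 and 3252 bp in control and 4518, 3582 and 3295 bp in shYY1 cells. The means were 5400 ± 1930 and 3800 ± 640 bp, a difference of -1610 bp (exact two-sided permutation p = 0.4). With 3 against 3 libraries the smallest possible p is 0.1, so no difference could have passed 0.05. Without the second control library the difference was -811 bp and without the third -2680 bp. Relative to 1000000 called bases the means were 5240 ± 453 and 4730 ± 1030 bp (exact permutation p = 0.4). The locus held 5.24 ± 0.509 of every 1000 SMC3 peaks in control and 5.24 ± 1.11 in shYY1 cells (exact permutation p = 1.0). On chromosome 3 the covered length was 1140 ± 593 and 792 ± 114 bp (exact permutation p = 0.4).

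Gene by gene, SMC3 was called in more control than shYY1 libraries at 24 of the 47 histone genes with SMC3 in any of the 6 (51.1%), against 43.2% of all such genes. It was called in more shYY1 than control libraries at 5 (10.6%), against 16.1%, and in as many of both at 18 (38.3%), against 40.8%. These shares are close to those of all genes. Of 33 histone genes with reproducible control SMC3, 23 (69.7%) also had it in shYY1 cells, against 70.4% of all.

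Within the set, the types divided differently. More control than shYY1 libraries had SMC3 at 8 of 11 H2B genes with any SMC3 call, 7 of 14 H2A, 5 of 9 H3 and 3 of 4 H1, but at 1 of 9 H4 genes, H4c1. At 6 of the 9 H4 genes the arms had it in equal numbers. Whether H4 differs from the other types was not tested, since members share peaks and the libraries differ in list length. With the 2061 longest peaks of each list, H4 genes with SMC3 numbered 5, 5 and 4 in control and 7, 3 and 4 in shYY1 cells, and H2B genes 3, 8 and 3 against 4, 5 and 1.

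At the extremes, YY1 and SMC3 were called in every library of both arms at 11 histone genes (16.4%), against 5.82% of all genes. Among genes with all 4 signals reproducible the shares were 11 of 23 (47.8%) and 50.5%. The 11 genes were H1f3, H2ac6, H2ac10, H2ac24, H2bc4, H3c6, H3c8, H4c9, H4c12, H4c14 and H4c18. They are not separate observations. H4c18 with H2ac24, H3c8 with H2ac10 and H2ac6 with H2bc4 each shared 1 SMC3 region. SMC3 in at least 2 control libraries and no shYY1 library was found at 3 (4.48%), H4c1, H3c1 and H3c15, against 2.07% of all genes. Among genes with reproducible control SMC3, the order was the other way round, 3 of 33 histone genes (9.09%) against 12.5%. The reverse pattern was found at 1 (1.49%), H4c3, against 0.183%, or at 1 of 24 histone genes with reproducible shYY1 SMC3 (4.17%) against 1.46%. No histone gene had SMC3 in all 3 control libraries and in no shYY1 library.

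Genes that act on histone genes or their products were examined for the same signals. Of all protein-coding genes, 52.1% had reproducible H3K4me3 and 11.5% all 4 signals. Among all genes with H3K4me3, 63.8% had YY1, 31.6% control SMC3 and 23.9% shYY1 SMC3. Whether the lists differ from these shares was not tested. The list for the histone locus body and histone mRNA 3′ processing held 19 genes, with Yy1, the gene of the profiled factor, among them. Of these, 19 had reproducible H3K4me3, 17 YY1, 9 control SMC3 and 6 shYY1 SMC3. All 4 were reproducible at Npat, the scaffold of the body, at Casp8ap2 (FLASH), at Zfp473, which binds the 3′ processing complex, at Hinfp, which activates H4 genes, at Snapc5 and at Yy1 itself. Of 15 regulators of S-phase histone transcription, 15 had H3K4me3, 14 YY1, 6 control SMC3 and 6 shYY1 SMC3. Hira is counted here and again among the chaperone genes. All 4 lay at Pou2f1, which binds the octamer, at Nfya and Nfyb, whose complex binds CCAAT, and at E2f3 and Ccne2. Of 22 histone chaperone and assembly genes, 22 had H3K4me3, 19 YY1, 12 control SMC3 and 11 shYY1 SMC3, with all 4 at Hjurp, Asf1a, Npm1, Ubn1, Chaf1b and Daxx among others. Of 11 replication-independent variant genes found, 10 had H3K4me3, 6 YY1, 3 control SMC3 and 4 shYY1 SMC3. All 4 were reproducible at the variant genes H3f3a, H2az1 and H2ax, whereas H1f0 and H1f10, which are in this list too, had neither YY1 nor SMC3.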

How the data were processed

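CUT&Tag peak lists of 12 libraries were used. The authors deposited the start, end and summit offset of each called peak, in base pairs, with no score. MACS2 2.2.9.1, Picard 3.1.1, Bowtie2 2.5.1 and cutadapt 4.5 are listed with mm10 per the submitters' processing notes, without settings. Peaks were assigned to RefSeq gene spans (GRCm38.p6) extended by 1000 bp, a call in at least 2 of 3 libraries counted as reproducible, and regions were merged when they shared at least 1 bp. Strands and starts came from RefSeq's promoter table, which held 62 of 67 histone genes. Locus values were compared with exact permutation tests over 20 assignments. Python 3.11.15, numpy 2.4.6, pandas 2.3.3 and scipy 1.17.1 were used, and the calculations were tested on simulated data. The members and gene lists were chosen with earlier results of these data known. Named genes were those with YY1 and SMC3 in every library, those whose SMC3 calls separated the arms, those with H3K4me3 and no YY1, the genes outside the clusters and the listed genes with all 4 signals; others were named after their values were seen. The first SMC3 library of each arm names Abcam in its description and the others name no source. The sources used here do not explain the number in the shYY1 descriptions.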

Additional observations from a re-analysis of the deposited data

How the results depend on the processing

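The lists carry no score, so the longer peaks of each list stood in for a stricter threshold. Windows of 0 and 2500 bp, gene ends in place of spans and a 50% overlap kept all 4 gene counts within 1.5 times. The YY1 count ranged from 44 to 61 over 10 alternatives. Counting only peaks at least as long as the median of their list gave 19 genes for H3K4me3, 19 for control SMC3 and 9 for shYY1 SMC3. The shares of all protein-coding genes were not taken under these alternative settings. Whether histone genes still exceed other genes among the longer peaks, for H3K4me3 above all, was therefore not tested. Requiring 3 of 3 libraries gave 17 for control SMC3, 14 for shYY1 SMC3 and a share of YY1 regions with SMC3 of 32.4%. Without the SMC3 libraries whose description names Abcam, control SMC3 lay at 17 genes and the share was 27.9%, and equal numbers of longest peaks gave 18 genes for control SMC3. Leaving out 1 library in turn gave 17 to 33 genes for control SMC3, the lowest without the first or the second library, 16 to 18 for shYY1 SMC3, a share of 27.9% to 61.8%, a YY1 summit distance of 27.0 to 34.5 bp, a difference between arms of -14.0 to -4.0 genes and a difference in covered length of -2680 to -811 bp. With 1 library of a group left out, as also without the Abcam libraries, a reproducible call needed 2 of 2 libraries. The gene counts and the share under these settings thus also reflect a stricter rule. The median YY1 summit distance over all histone genes, 31.3 bp, became 44.0 bp with peak midpoints. Pairing libraries by number (a replicate block) left the difference at -7.67 genes and -1610 bp (exact sign-flip p = 0.5, with 0.25 the smallest possible). Same-numbered libraries correlated at -0.0189, 0.0158 and -0.0471, and differently numbered ones at -0.038 to 0.0586. No pairing by number was seen, but presence calls alone cannot exclude a shared preparation. Both differences stayed negative under every alternative run.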

Other observations

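One gene inside the chromosome 13 locus, chosen after its values were seen, carried YY1 and SMC3 without the promoter mark. Slc17a4, a solute carrier gene between histone genes, had a YY1 peak within 1000 bp in 3 of 3 libraries, SMC3 in 3 control and 2 shYY1 libraries, and H3K4me3 in 0 of 3.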
